A study of Mus musculus with 6 samples.

Results

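The table of long noncoding RNAs (lncRNAs) from RAW264.7 cells gives each lncRNA a relation to a neighbouring gene. The 1376 lncRNAs described here, of 24817 listed, are those whose relation was given as bidirectional (900 lncRNAs beside 800 genes) or antibidirectional (476 lncRNAs beside 443 genes). RAW264.7 is a mouse macrophage cell line. Its cells were first held with lipopolysaccharide (LPS, a bacterial cell wall component that activates macrophages) for 24 hours and then given medium that had extracted a bone cement. Poly(methyl methacrylate), PMMA, is the plastic of common bone cement, and ES-PMMA is cement that also carries enoxaparin sodium, a low molecular weight heparin used against clotting. The LPS_ES_PMMA group had LPS and then ES-PMMA extract (3 libraries), and the LPS_PMMA group had LPS and then PMMA extract (3 libraries). The sample titles and treatment entries say LPS_PMMA for the second group, while its sample descriptions and table columns carry only the name LPS. Both groups had LPS, so neither shows resting cells. The single cell line is the model in all 6 libraries, and no source says that the libraries came from separate cultures, so the p-values measure the spread between these libraries, which may be technical. The genes that define macrophages are protein-coding and were not analysed here, so the labelled cell type was not checked against them.

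Many mammalian promoters start RNA synthesis in both directions. The polymerase that runs into the gene makes the mRNA, and a second polymerase runs the other way and makes an RNA that is often short-lived and sometimes spliced into a lncRNA. Such divergent pairs share a stretch of open, CpG-rich DNA and often lack a TATA box, the sequence that fixes a start site at many single-direction promoters. A lncRNA on the same strand and just before a gene can instead share the gene's direction, as can one that follows a gene's end.

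The sequences below show windows before a gene start in which a bidirectional lncRNA has its nearest edge. The strand of these 5 lncRNAs is not in the table. They are the 250 bases before the start of the gene, 5' to 3' on the gene's strand, from RefSeq on build GRCm38.p6 (mm10). Zfp335, Fancd2os, Rnf24 and Asprv1 are the genes beside the 4 bidirectional lncRNAs that were lower in LPS_ES_PMMA and that lie upstream of their gene. Ddx58 is the gene of the study's title, with a lncRNA 11 bases before it by GENCODE. Capitals mark matches to 8 motifs. They are the TATA box, spelled TATAAA, the CCAAT box, the GC box with the letters GGGCGG, the binding motif of ETS factors written CCGGAAG, the E-box given by CACGTG, and the NRF1, ISRE and NF-kB motifs, each searched on both strands, and neighbouring matches can overlap.
Zfp335, chr2:164911751-164912000, minus strand: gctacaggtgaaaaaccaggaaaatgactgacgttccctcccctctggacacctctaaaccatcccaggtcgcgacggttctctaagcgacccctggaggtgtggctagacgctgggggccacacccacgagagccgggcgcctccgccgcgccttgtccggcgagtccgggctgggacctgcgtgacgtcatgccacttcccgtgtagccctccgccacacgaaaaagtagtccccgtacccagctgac
Fancd2os, chr6:113600716-113600965, minus strand: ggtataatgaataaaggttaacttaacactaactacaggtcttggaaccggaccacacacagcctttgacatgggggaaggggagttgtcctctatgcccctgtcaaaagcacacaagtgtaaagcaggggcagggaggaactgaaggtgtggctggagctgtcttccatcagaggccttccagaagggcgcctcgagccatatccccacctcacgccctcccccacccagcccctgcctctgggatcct
Rnf24, chr2:131352893-131353142, minus strand: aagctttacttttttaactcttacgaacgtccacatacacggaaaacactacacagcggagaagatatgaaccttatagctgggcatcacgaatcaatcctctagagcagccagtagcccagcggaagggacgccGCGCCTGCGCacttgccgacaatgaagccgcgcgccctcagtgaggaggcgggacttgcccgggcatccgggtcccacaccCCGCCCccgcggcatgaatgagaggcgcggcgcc
Asprv1, chr6:86627924-86628173, plus strand: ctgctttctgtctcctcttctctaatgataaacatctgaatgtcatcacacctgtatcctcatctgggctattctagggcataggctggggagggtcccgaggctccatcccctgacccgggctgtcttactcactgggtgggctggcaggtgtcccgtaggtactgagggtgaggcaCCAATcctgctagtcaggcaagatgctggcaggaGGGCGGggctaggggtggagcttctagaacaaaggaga
Ddx58, chr4:40239826-40240075, minus strand: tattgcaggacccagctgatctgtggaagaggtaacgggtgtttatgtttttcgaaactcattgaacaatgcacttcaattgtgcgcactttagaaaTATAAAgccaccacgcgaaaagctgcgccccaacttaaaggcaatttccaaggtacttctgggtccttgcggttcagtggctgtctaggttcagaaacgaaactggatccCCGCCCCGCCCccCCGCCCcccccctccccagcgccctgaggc
The nearest edge of the lncRNA lay 50 bases before the RefSeq start of Zfp335, 49 before that of Fancd2os, 97 before that of Rnf24, 193 before that of Asprv1 and 14 before that of Ddx58. The Rnf24 window held a GC box and an NRF1 match, the Asprv1 window a CCAAT box and a GC box, and the Ddx58 window a TATA box and 3 GC boxes. The windows of Zfp335 and Fancd2os held none of the 8 motifs. The ratio of observed to expected CpG was 1.04 for Rnf24, 0.85 for Zfp335, 0.68 for Ddx58, 0.21 for Fancd2os and 0.20 for Asprv1, so the 5 windows ranged from CpG-rich to CpG-poor.

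For 2 lncRNAs with an Ensembl transcript that passed the test, the first 150 bases of the transcript (GENCODE M21, mm10) are shown to give the RNA itself. Gm43364 is the antibidirectional lncRNA beside Cplx1, and Gm6410 is the bidirectional lncRNA beside Gm7461.
Gm43364: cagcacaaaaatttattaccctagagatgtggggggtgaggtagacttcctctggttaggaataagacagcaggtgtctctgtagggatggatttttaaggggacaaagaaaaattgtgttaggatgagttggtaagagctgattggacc
Gm6410: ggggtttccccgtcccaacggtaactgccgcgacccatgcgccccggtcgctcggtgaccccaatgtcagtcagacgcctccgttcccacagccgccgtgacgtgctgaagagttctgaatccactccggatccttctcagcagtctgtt
Gm43364 is 3274 bases long with no intron in its listed span, and Gm6410 is a spliced transcript of 1105 bases. The microRNA miR-21a, beside which a further changed lncRNA lies, is shown with its seed (bases 2 to 8) in capitals, from RefSeq.
miR-21a-5p: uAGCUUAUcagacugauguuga
miR-21a-3p: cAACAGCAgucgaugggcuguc

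The labels were checked against GENCODE M21 on mm10. The strand printed in the table was that of the neighbour gene for all 900 bidirectional lncRNAs and for the 474 antibidirectional ones whose gene was in the annotation. Among lncRNAs with an Ensembl identifier, whose own strand is known, all 115 bidirectional ones lay on the strand opposite their gene and all 45 antibidirectional ones lay on the strand of their gene. The label therefore separated opposite from equal strands in these 160 lncRNAs, of which 159 had the listed start and end in the annotation. For the 785 and 431 with NONCODE identifiers the table does not give the strand of the lncRNA. Every bidirectional lncRNA lay within 1000 bases of its gene, and 473 of the 474 antibidirectional ones did.

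Bidirectional lncRNAs were mostly upstream of their gene (81.1%, 730 lncRNAs) and crowded the gene start. Their median distance to it was 185.5 bases, and 52.5% lay within 200 bases. Antibidirectional lncRNAs were split between upstream (215 lncRNAs, 45.4%) and downstream (241 lncRNAs, 50.8%). Those upstream had a median distance of 379 bases and 32.6% within 200 bases, and those downstream a median of 462 bases from the gene end. The neighbour was a protein-coding gene for 86.8% of bidirectional lncRNAs and for 68.8% of antibidirectional ones. Pseudogenes were the neighbours of 67 bidirectional and 84 antibidirectional lncRNAs, and small RNA genes those of 41 and 46. The median length was 1041.5 bases for bidirectional and 1079 bases for antibidirectional lncRNAs.

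**Figure D1:**
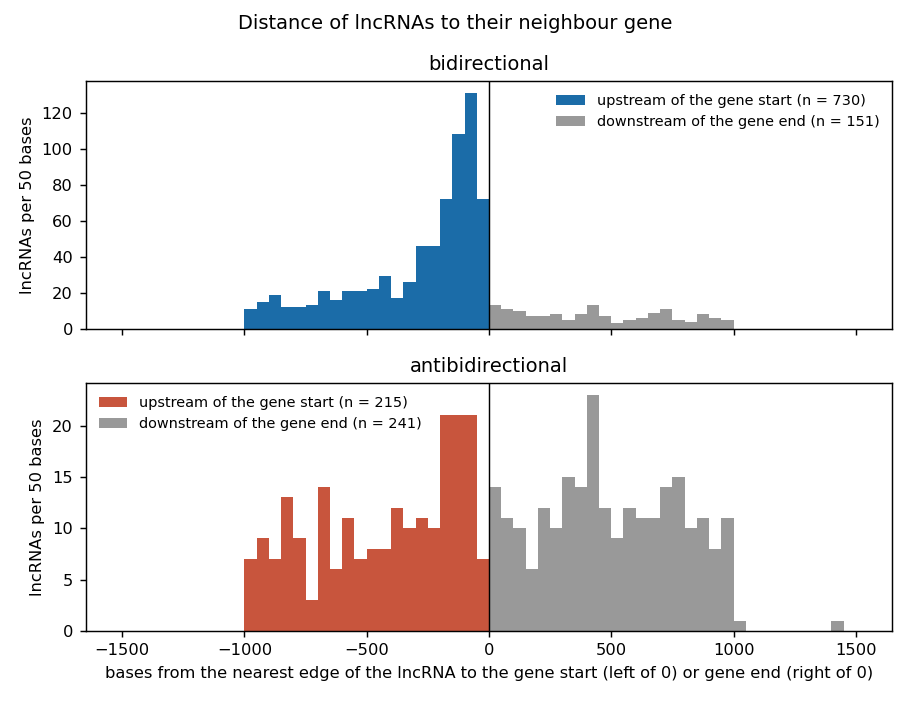
Number of lncRNAs per 50 bases of distance between the nearest edge of the lncRNA and the start (left of 0) or end (right of 0) of its neighbour gene, for the 2 labels on separate vertical scales. Bidirectional lncRNAs pile up in the first 200 bases before the gene start, while antibidirectional lncRNAs spread over the whole 1000 bases on both sides.

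The promoters of the neighbours are described without a test. RefSeq windows of 250 bases before to 50 after the start were matched for 472 of the 589 protein-coding genes with an upstream bidirectional lncRNA (80.1%). Their median ratio of observed to expected CpG was 0.83, against 0.60 over 16874 windows of protein-coding genes, and 78.4% of them were above 0.6, against 49.9%. The 16874 windows were not limited to genes expressed in these cells. A GC box was in 71.8% of these windows and in 48.0% of all. TATAAA was in 6.36% of them and in 13.1% of all. The ETS motif was in 16.7% against 12.2%, NRF1 in 9.32% against 6.86% and CCAAT in 39.4% against 39.1%. E-box, ISRE and NF-kB motifs were in 8.26%, 3.18% and 0.21% of the windows, against 8.10%, 3.44% and 0.40%. Genes with a downstream antibidirectional lncRNA (124 of 154 matched) had a median CpG ratio of 0.81, a GC box in 63.7%, TATAAA in 4.84%, ETS in 15.3% and NRF1 in 14.5%. Genes with a downstream bidirectional lncRNA (78 of 96 matched) had a median CpG ratio of 0.71, a GC box in 56.4%, TATAAA in 8.97%, ETS in 19.2% and NRF1 in 7.69%. In each of these 3 groups the median CpG ratio was above that of all windows. For genes with an upstream antibidirectional lncRNA 79.0% were matched, under the minimum of 80% applied to all sets, so their windows are not described.

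The 6 libraries held 1123551 to 3697638 counts on all lncRNAs, the smallest total being LPS_ES_PMMA replicate 2, and the factors that scale the libraries (TMM, trimmed mean of M-values) ran from 0.559 to 1.82. The lncRNAs described here took 0.450% to 1.18% of the counts, or 13233 to 29464 reads per library. Levels below are counts per 1000000 of the TMM-scaled total (CPM) unless FPKM (fragments scaled to transcript length and library size) is named. Most of these lncRNAs were scarce. The median of the mean FPKM over libraries was 0.866 for bidirectional and 1.07 for antibidirectional lncRNAs, the latter as for all features of the table (1.07). Reads were found for 610 to 760 of the 900 bidirectional and for 327 to 405 of the 476 antibidirectional lncRNAs in a library. Only 398 and 233 had reads in all 6. A minimum of 10 counts let 251 bidirectional (27.9%) and 159 antibidirectional lncRNAs (33.4%) into the test, against 35.8% of the whole table. The sources used here do not give the strand setting of the counting, so reads of overlapping lncRNAs and of their genes cannot be told apart, and 349 bidirectional and 171 antibidirectional lncRNAs overlap another listed lncRNA.

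Over 3 spans a lncRNA is listed under each label, so that the counts given to the 2 listings can be compared. Over the span of Gm43364 beside Cplx1, the antibidirectional transcript had 3024 reads in the 6 libraries and the bidirectional NONMMUT053654.2 had 37. Beside Gm44363 the bidirectional ENSMUST00000197486 had 226 reads and the antibidirectional NONMMUT051458.2 had 4. Beside Prrc2a the bidirectional NONMMUT144860.1 had 15 reads and the antibidirectional NONMMUT145123.1 had 52. The counts of each span thus fell mainly on 1 of the 2 listings. How the counting divided these reads is not given, so the split does not show which strand they came from.

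LPS_ES_PMMA was compared with LPS_PMMA, the contrast in which the study screened for RNAs that differ between the cements. Of the 410 tested lncRNAs, 19 passed an adjusted p of 0.05 in edgeR's quasi-likelihood test (4.63%), against 4.76% of all 8873 features tested. Bidirectional lncRNAs contributed 13 of 251, with 8 higher and 5 lower in LPS_ES_PMMA, and antibidirectional ones 6 of 159, with 1 higher and 5 lower. The shares of all features were 2.18% higher and 2.58% lower, and the difference between the labels was not tested. The share called was close to that of the whole table. The median log2 fold change was 0.12 for bidirectional, -0.06 for antibidirectional and 0.03 for all tested features. The 3 libraries of each group did not overlap in 47 bidirectional lncRNAs that were higher and 32 that were lower, and in 24 and 20 antibidirectional ones, where 16.2% and 14.6% of all features were so placed. The direction of the calls depends on the scaling. With column totals in place of TMM factors 15 were called higher and 3 lower, against 302 and 68 of all features (whose median was then 0.82). With totals implied by FPKM 9 were called higher and 5 lower, against 230 and 94 of all features (median 0.45). None of the 19 changed direction under these scalings, although 1 of them was not tested with FPKM totals. With column totals 12 of the 19 passed, and the 7 that did not were all lower calls. They lie beside Ttf1, Nfkb2, Fancd2os, Asprv1, Cplx1, Rnf24 and Zfp326, with adjusted p of 0.0556 to 0.36 in edgeR. Leaving out any 1 of the 6 libraries lowered the count of bidirectional calls from 13 to between 0 and 2 and that of antibidirectional calls from 6 to between 2 and 5, and 12 of the 19 passed in none of these fits. Over all features the calls fell from 422 to between 50 and 136 in the same fits. Of the 19, 14 overlap another listed lncRNA, and 17 of the 19 kept their call when overlapping features were summed. These 17 include the calls without an overlap, whose counts the sum leaves as they were.

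**Figure D2:**
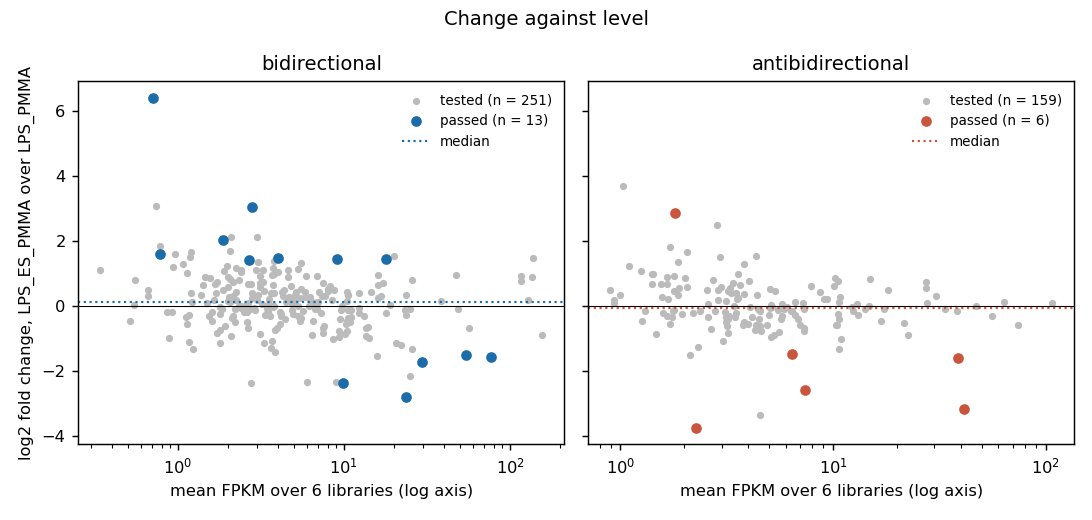
Log2 fold change (LPS_ES_PMMA over LPS_PMMA) of each tested lncRNA against its mean FPKM over 6 libraries on a log axis, with coloured points for those that passed an adjusted p of 0.05. Of the 6 antibidirectional calls 5 lie below 0, while the bidirectional calls lie on both sides, 8 above and 5 below.

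Positions of lncRNAs are on mm10. NONMMUT117700.1, with the highest CPM of the 19 in LPS_PMMA, is antibidirectional and lies 936 bases before Gm38074, a gene model with no settled type (chr4:144959784-144965550). Its CPM was 85.2, 75.5 and 74.5 in LPS_ES_PMMA and 700, 662 and 724 in LPS_PMMA. The groups lay far apart, with narrow spread in each. The edgeR log2 change was -3.15 with SE 0.24 (adjusted p = 0.00206), and it passed in all 6 fits that left out a library. It took 2.81% to 3.32% of the antibidirectional CPM in LPS_ES_PMMA and 20.2% to 21.1% in LPS_PMMA. NONMMUT117700.1 overlaps 5 other listed lncRNAs. Of these only NONMMUT148313.1 was tested, and it also fell (log2 fold change -3.28, adjusted p = 0.0132 in edgeR). Summed with all 5, the log2 fold change of NONMMUT117700.1 was -3.13 (adjusted p = 0.00207 in edgeR). NONMMUT026427.2, 689 bases past the end of Dirc2, a gene of a lysosomal membrane transporter (chr16:35689073-35693373), had CPM of 1.21, 3.55 and 2.36 against 34.4, 28.7 and 27.4. It fell by 3.73 in log2 units (edgeR, SE 0.40 and adjusted p = 0.00547) and also passed in all 6 such fits. The overlapping NONMMUT144625.1 had 13, 20 and 16 reads against 122, 138 and 118, in the same direction.

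NONMMUT105607.1 lies 344 bases before Nfkb2, the gene of the p100 and p52 subunit of NF-kB, which macrophages use to respond to LPS (chr19:46302319-46303976). It had 2.91, 2.53 and 2.02 CPM in LPS_ES_PMMA and 14.7, 16.1 and 14.8 in LPS_PMMA. The edgeR log2 change was -2.58 with SE 0.32 (adjusted p = 0.00954). ENSMUST00000196046 (Gm43364), 57 bases before Cplx1, whose complexin binds the SNARE fusion machinery, had 84.8, 109 and 98.4 CPM against 274, 322 and 285 (chr5:108550081-108553354). It fell by 1.59 in log2 units (edgeR, SE 0.24 and adjusted p = 0.0158). NONMMUT053524.2, 235 bases past the end of Zfp326, a zinc finger protein tied to splicing (chr5:105916053-105917742), ran from 6.74 to 10.7 CPM against 23.2 to 26.5 (edgeR log2 change -1.46 with SE 0.28, adjusted p = 0.0298). The only higher antibidirectional call was NONMMUT100888.1, 79 bases past the end of the pseudogene Gm10045 (chr17:29308699-29311921), with 11.5 to 14.7 CPM against 0.787 to 2.53 (edgeR log2 change 2.85 with SE 0.44, adjusted p = 0.0171). It shares 24 bases with NONMMUT100889.1, which went the other way (13, 25 and 25 reads against 92, 80 and 140), and the summed counts gave a log2 fold change of -1.07 (adjusted p = 0.103 in edgeR). The part of the shared bases in the call was not tested.

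Among bidirectional lncRNAs the 4 lower ones upstream of their gene have their nearest edge in the windows printed above. NONMMUT041111.2, 43 bases from Zfp335, a zinc finger regulator of transcription (chr2:164911800-164912866), had CPM of 11.2, 5.07 and 16.2 in LPS_ES_PMMA and 110, 66.1 and 49.8 in LPS_PMMA (edgeR log2 change -2.78 with SE 0.48, adjusted p = 0.0231). The groups did not overlap, though LPS_PMMA replicate 1 stood well above the others. NONMMUT150133.1, 49 bases from Fancd2os (chr6:113600764-113601509), had 13.1, 11.7 and 17.9 CPM against 48.2, 50.8 and 43.0 (edgeR log2 change -1.73 with SE 0.27, adjusted p = 0.0173). NONMMUT107944.1, 97 bases from Rnf24, a membrane RING finger protein (chr2:131352989-131399336), had 24.8, 28.9 and 34.0 CPM against 81.6, 94.1 and 73.3 (edgeR log2 change -1.51 with SE 0.25, adjusted p = 0.0216). The overlapping bidirectional NONMMUT039957.2, 26 bases from Rnf24, did not pass (edgeR log2 change -0.67 with SE 0.69, adjusted p = 0.617). NONMMUT150542.1, 183 bases from Asprv1, a protease of skin (chr6:86627538-86627981), had 21.1, 23.3 and 37.7 CPM against 89.0, 94.8 and 59.9 (edgeR log2 change -1.57 with SE 0.33, adjusted p = 0.0405). The fifth lower lncRNA, NONMMUT036485.2, lies 715 bases past the end of Ttf1, which ends transcription of ribosomal RNA genes (chr2:29088371-29090246), and had 9.47, 6.08 and 12.5 CPM against 41.3, 57.5 and 46.9 (edgeR log2 change -2.36 with SE 0.33, adjusted p = 0.0137). Of 112 tested bidirectional lncRNAs within 200 bases before their gene, 2 were called higher and 4 lower, and of 87 beyond 200 bases 4 were called higher and 0 lower. Of all features 2.18% were called higher and 2.58% lower. The difference between the distances was not tested.

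**Figure D3:**
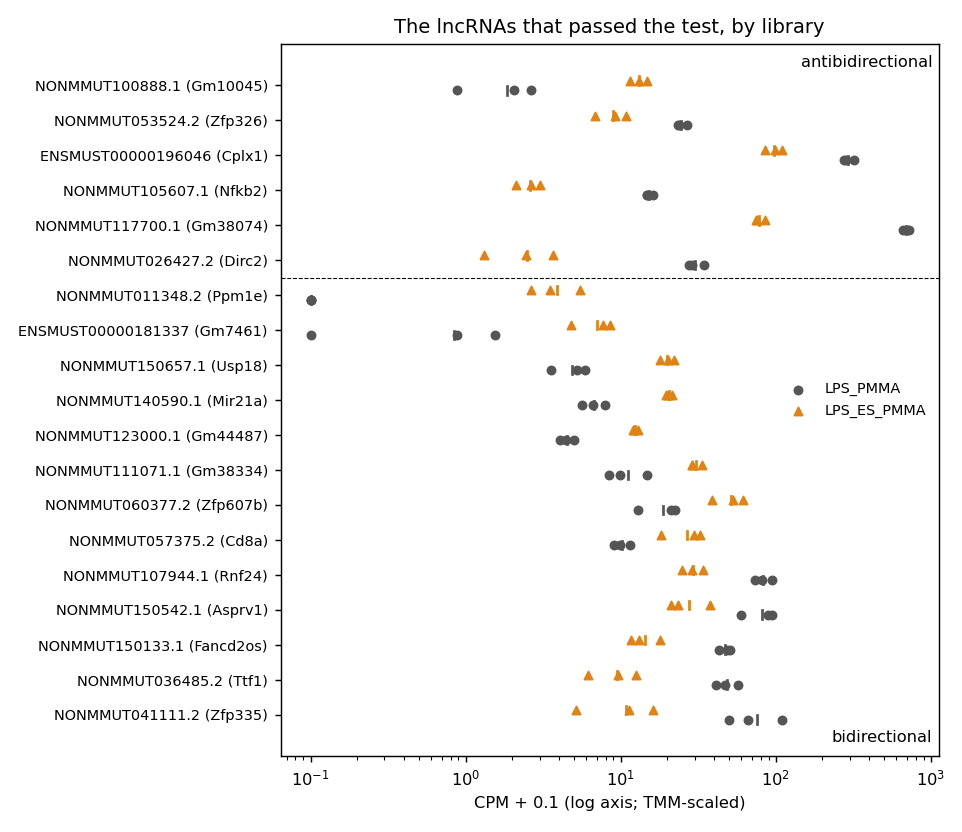
CPM + 0.1 in each library (log axis) of the 19 lncRNAs that passed, with the neighbour gene named, circles for LPS_PMMA, triangles for LPS_ES_PMMA and a short vertical line at each group mean. In each of the 19 the points of the 2 groups do not overlap, for example in NONMMUT117700.1, whose values run from 74.5 to 85.2 CPM against 662 to 724.

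Of the bidirectional lncRNAs 8 rose. NONMMUT150657.1 lies 317 bases before Usp18, which removes the interferon-induced ISG15 tag from proteins (chr6:121240543-121245589), and had 21.9, 17.7 and 20.2 CPM in LPS_ES_PMMA against 3.44, 5.12 and 5.78 in LPS_PMMA (edgeR log2 change 2.04 with SE 0.30, adjusted p = 0.0159). NONMMUT140590.1 lies 718 bases past the end of Mir21a, the gene of a widely expressed microRNA (chr11:86569345-86583349), and had 19.4, 21.3 and 20.2 CPM against 7.87, 5.51 and 6.50 (edgeR log2 change 1.61 with SE 0.27, adjusted p = 0.0206). ENSMUST00000181337 (Gm6410, chr8:4678462-4688494), 97 bases before the gene model Gm7461, had 35, 15 and 14 reads against 0, 2 and 4 (edgeR log2 change 3.05 with SE 0.67, adjusted p = 0.0447). NONMMUT060377.2, 186 bases before Zfp607b, a KRAB-type zinc finger gene (chr7:27686253-27689154), had 39.0 to 61.7 CPM against 12.8 to 22.4, and NONMMUT057375.2, 621 bases before Cd8a, the gene of a T cell co-receptor (chr6:71362766-71372806), had 18.2 to 32.3 against 9.03 to 11.4. NONMMUT111071.1 and NONMMUT123000.1, beside the pseudogenes Gm38334 and Gm44487 (chr3:51572289-51573158 and chr6:125206032-125207573), had 28.9 to 33.5 against 8.36 to 14.8 CPM and 11.9 to 12.8 against 3.97 to 4.92 CPM. Their log2 fold changes were 1.46 and 1.48, next to 1.45 for NONMMUT060377.2 and 1.41 for NONMMUT057375.2. These 4 had adjusted p-values of 0.0349 to 0.045 in edgeR. NONMMUT011348.2, 397 bases before the phosphatase gene Ppm1e (chr11:87359420-87361725), had 14, 5 and 16 reads with ES-PMMA extract and none with PMMA extract (adjusted p = 0.0307 in edgeR). It met the count minimum only through the LPS_ES_PMMA libraries. With 3 counts allowed to the group with none it was 9.46-fold higher, a value that leaves out the spread between libraries. The overlapping MSTRG.9713.1 covers its whole span and had 1826 to 5895 reads per library. When NONMMUT011348.2 was summed with it, the log2 fold change was -0.33 (adjusted p = 0.8 in edgeR). Other calls also needed their higher group to meet the count minimum, so their tests are not free of that selection. NONMMUT026427.2 had 5, 7 and 7 reads in LPS_ES_PMMA. NONMMUT100888.1 had 4, 2 and 7 reads in LPS_PMMA, and ENSMUST00000181337 had the 0, 2 and 4 given above. NONMMUT105607.1, NONMMUT150657.1 and NONMMUT123000.1 needed their higher group as well.

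Ddx58 is the sensor of viral RNA that the study's title names, and the lncRNA beside it, NONMMUT147981.1, lies 11 bases before the gene, closer than in any of the calls. Its reads numbered 0, 0 and 0 with ES-PMMA extract against 5, 1 and 2 with PMMA extract, and it was too low to be tested. In the authors' deposited table its p-value was 0.0334 and its q-value 0.356.

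Calls in the lists of neighbour genes by role are set beside the 4.76% of all tested features that were called. Among 6 lncRNAs beside interferon and RNA sensing genes only NONMMUT150657.1 (Usp18) was tested, and Isg15, Irf1, Parp14, Parp12 and Ddx58 have lncRNAs under the count minimum. Of 4 beside LPS and NF-kB response genes 3 were tested, 1 was called lower, and the LPS_ES_PMMA libraries lay below the others in all 3 (median log2 fold change -1.41). Over all features 2.58% were called lower and 14.6% lay apart in that direction, and 3 lncRNAs are too few to read against these shares. Map3k8, a kinase in LPS signalling, had 2.91, 2.53 and 3.03 CPM against 7.87, 7.48 and 7.58 for NONMMUT031303.2 (log2 fold change -1.41, adjusted p = 0.0562 in edgeR). Its edgeR adjusted p was 0.0492 with only annotated features fitted, the lowest of the alternatives. With column totals it was 0.368, the highest (log2 fold change -0.67). Icam1, an adhesion molecule, had 38.6, 23.3 and 50.2 CPM against 68.8, 59.4 and 51.6 for NONMMUT068277.2 (log2 fold change -0.68, adjusted p = 0.273 in edgeR). With column totals its log2 fold change was 0.06, in the other direction (adjusted p = 0.906 in edgeR). The ubiquitin system list had 16 of 42 tested, with 1 higher and 1 lower, and the zinc finger list 12 of 38, with 1 higher and 2 lower and a median of 0.61. Of all features 2.18% were called higher and 2.58% lower, and lists of 16 and 12 tested lncRNAs are too small to read against these shares. The higher call in the ubiquitin list is the Usp18 lncRNA again. None of the tested lncRNAs passed in 8 other lists. These were alternative activation (1 tested of 3), stress response (2 of 4), cell cycle (2 of 7), transcription factors and chromatin (2 of 8), ribosome and translation (4 of 14), mitochondrial respiration (2 of 10), RNA processing (4 of 19) and vesicle traffic (6 of 16). The 4 lysosome and macrophage lncRNAs were all under the minimum, and no lncRNA had a gene of the list of microRNA and snoRNA hosts by own name.

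MicroRNA genes had 43 of these lncRNAs as neighbours, 21 bidirectional and 22 antibidirectional. Of the 14 tested only that beside Mir21a passed, as a higher call. Of all tested features 4.76% were called and 2.18% called higher, and 14 lncRNAs are too few to read against these shares. The antibidirectional counterpart of the Mir21a lncRNA, NONMMUT141052.1, lies at the same 718 bases. It had 23, 1 and 1 reads against 8, 3 and 7, and was not tested. NONMMUT123540.1 beside Mir29a had a log2 fold change of -0.59 (adjusted p = 0.409 in edgeR), and NONMMUT030105.2 beside Mir7b of 0.63 (adjusted p = 0.324 in edgeR).

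The most abundant bidirectional lncRNAs by FPKM did not pass with TMM factors. NONMMUT145762.1 beside Rps6kb2, a ribosomal S6 kinase, had 164, 73.2 and 159 FPKM against 151, 177 and 216, which overlap. Its CPM was 93.0, 47.6 and 119 against 173, 150 and 156, which do not overlap (log2 fold change -0.88, adjusted p = 0.193 in edgeR). NONMMUT142630.1 beside the histone gene Hist1h4b had 207, 214 and 246 FPKM against 78.8, 47.1 and 38.7, which do not overlap, with an edgeR log2 change of 1.48 (SE 0.45 and adjusted p = 0.109). It passed with column totals (log2 fold change 2.42, adjusted p = 0.0243 in edgeR), with FPKM totals (2.02, adjusted p = 0.0243 in edgeR) and with limma (2.08, adjusted p = 0.0204). NONMMUT150407.1 beside the Y RNA gene Rny3 had 9 reads in LPS_PMMA replicate 1 against 196 to 406 in the other libraries. ENSMUST00000118803 beside Mgl2, a lectin gene used as a marker of alternative activation, had 347 reads in LPS_ES_PMMA replicate 2 and 88 to 111 in the others. NONMMUT142149.1 beside Fam208b had 139, 163 and 153 FPKM against 56.8, 107 and 148. Its CPM was 33.5, 45.1 and 48.8 against 27.5, 38.6 and 45.5, which overlap (log2 fold change 0.19, adjusted p = 0.756 in edgeR). The 5 most abundant antibidirectional lncRNAs ranged from 47.2 to 107.6 in mean FPKM, and none passed. Only Mtdh had a tested lncRNA of each label, NONMMUT023061.2 (bidirectional, log2 fold change 0.34, adjusted p = 0.532 in edgeR) and NONMMUT143629.1 (antibidirectional, -0.15, adjusted p = 0.848).

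The summed level of each label depended on the scaling of the libraries. With TMM factors all bidirectional lncRNAs together had 4594 ± 391 CPM (SD, n = 3) in LPS_ES_PMMA and 4583 ± 116 in LPS_PMMA, and the groups overlapped. As a share of the column totals they took 0.580%, 0.739% and 0.482% of the reads in LPS_ES_PMMA and 0.259%, 0.355% and 0.433% in LPS_PMMA, without overlap. With TMM factors the antibidirectional lncRNAs together had 2570 ± 73.4 CPM in LPS_ES_PMMA and 3389 ± 115 in LPS_PMMA, without overlap. As a share of the column totals they took 0.324%, 0.439% and 0.256% against 0.191%, 0.255% and 0.331%, which overlap and have the higher mean in LPS_ES_PMMA. With totals implied by FPKM the means were 0.205% and 0.201%, and the groups overlapped. Without NONMMUT117700.1 the TMM-scaled sums were 2491 ± 74.6 and 2694 ± 90.3 CPM, where the nearest libraries were 2571 and 2595, and the shares of column totals were 0.329% and 0.206% on average. The direction of the antibidirectional sum did not hold across the 3 scalings. With 3 libraries against 3 an exact permutation test cannot give a p below 0.1, so no test was made. In bulk RNA fewer cells with an RNA and less RNA per cell cannot be told apart.

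**Figure D4:**
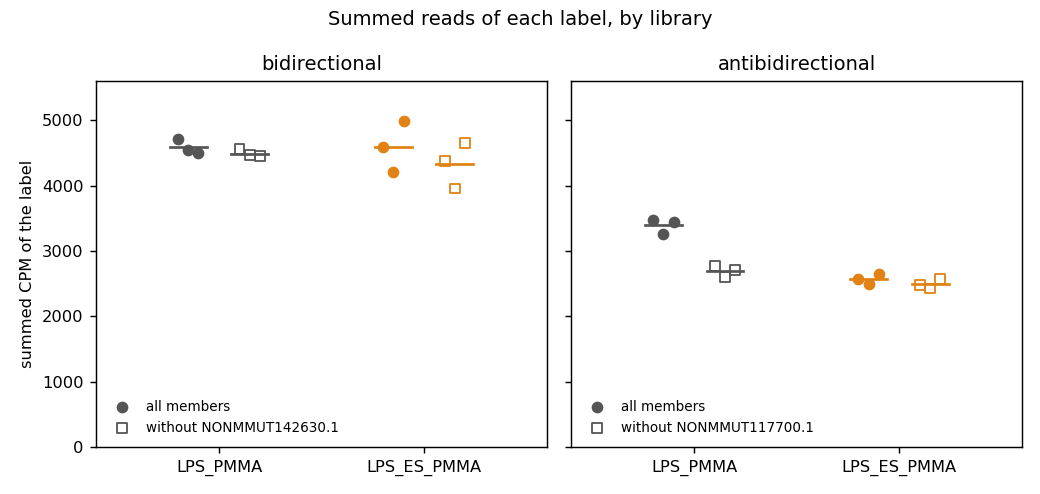
Summed TMM-scaled CPM of all bidirectional and all antibidirectional lncRNAs in each library, with (filled circles) and without (open squares) the lncRNA named in each panel, and a horizontal line at each group mean. The antibidirectional sum of the LPS_ES_PMMA libraries lies at 2499 to 2646, below the LPS_PMMA libraries at 3257 to 3472, an order that column totals did not keep.

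Among the 649 bidirectional lncRNAs not tested, 23 had reads in all 3 LPS_ES_PMMA libraries and none in LPS_PMMA, and 5 the reverse. Among the 317 antibidirectional ones the numbers were 10 and 4. Their median totals were 10 and 11 reads, so such patterns rest on few reads. This pattern was not counted over all features, so these numbers cannot be read against the whole table. A wider count takes every lncRNA without reads in a group, tested or not. By it 101 bidirectional lncRNAs had no reads in LPS_PMMA and 40 had none in LPS_ES_PMMA, and 39 and 19 antibidirectional ones. Of all 24817 features, 2240 had no reads in LPS_PMMA and 1042 had none in LPS_ES_PMMA, so by the wider count the whole table leans the same way. The authors' deposited table calls 36 bidirectional lncRNAs UP and 25 DOWN, and 13 and 9 antibidirectional ones, where 4.33% and 2.49% of the whole table are called UP and DOWN. Of these, 8, 5, 1 and 4 were also called here, and 16, 16, 4 and 4 were not tested here.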

How the data were processed

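Total RNA of the RAW264.7 cells was sequenced after a SMARTER mRNA library kit, per the labels' protocols. The deposited table gives raw read counts per lncRNA and FPKM, and the build is mm10, per the submitters' processing notes. Sources used here name neither the aligner nor the counter, nor whether counting used strand. The authors' deposited log2 fold change is the log2 ratio of group mean FPKM, checked on the values, and their p-value and q-value are named as from edgeR in the file name. The FPKM values were set by the authors and used as levels.

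Counts were fitted for all 24817 features with edgeR 4.0.16 in R 4.3.3 (filterByExpr minimum count 10, minimum total 15, TMM factors, quasi-likelihood test, group as the only term), leaving 8873 features, with Benjamini-Hochberg adjustment over these and a threshold of 0.05. The common biological coefficient of variation was 0.415. CPM uses TMM-scaled totals. Neighbour position came from GENCODE M21, promoters and microRNAs from RefSeq. Named lncRNAs were all that passed, the 5 most abundant of each label, up to 3 per list of neighbour genes, Ddx58's and genes tested under both labels. Members and lists were chosen with earlier results of these data known. Alternatives were other scalings and filters, DESeq2 1.42.0, limma 3.58.1 on log2(FPKM + 0.1), annotated features only, a replicate block, leaving out each library and, added after the data were seen, sums with overlapping features and the labels' summed reads under other scalings.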

Additional observations from a re-analysis of the deposited data

How the results depend on the processing

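The count of bidirectional calls was 13 and became 3 with no filter on low counts, 5 with a mean FPKM of at least 1, 8 with limma and 0 to 2 when a library was left out. The count of antibidirectional calls was 6 and became 2 to 5 when a library was left out. Over all features 422 calls became 174, 200 and 50 to 136 under no filter, the FPKM filter and left-out libraries. With 2 libraries left in a group, fits assume that it varies like the other group. The replicate numbers did not pair the libraries (correlations of -0.0196, -0.0246 and -0.0931 for equal numbers), and with the replicate block 0 bidirectional, 2 antibidirectional and 41 features in all were called. The median log2 fold changes were 0.89 (bidirectional) and 0.75 (antibidirectional) with column totals and 0.53 and 0.39 with FPKM totals. Of the 19 calls, 19 passed with relative log expression factors and with robust edgeR, 18 with DESeq2, 12 with column totals, 11 with FPKM totals, 10 with limma, 8 with no filter and 2 with the block. Summing overlapping features, chosen after seeing the data, turned NONMMUT011348.2 to -0.33 and NONMMUT100888.1 to -1.07 and kept the other 17. The 17 include calls without an overlap, whose counts did not change. The log2 ratio of the summed antibidirectional reads, -0.40 with TMM factors, was 0.39 with column totals and 0.031 with FPKM totals, and without NONMMUT117700.1 it was -0.11, 0.68 and 0.32. For bidirectional reads it was 0.0035, 0.78 and 0.43, and without NONMMUT142630.1 it was -0.052, 0.72 and 0.38. These scalings of the sums were added after seeing the data.

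Among lncRNAs that did not pass, column totals turned the log2 fold change positive for NONMMUT124761.1 (0.20), NONMMUT105576.1 (0.40), ENSMUST00000120440 (0.89), NONMMUT068277.2 (0.061), NONMMUT012372.2 (0.24), ENSMUST00000135244 (0.78), NONMMUT055060.2 (0.81), NONMMUT150688.1 (0.18), NONMMUT145952.1 (0.61), NONMMUT051907.2 (0.59), NONMMUT145116.1 (0.43), NONMMUT049891.2 (0.37), ENSMUST00000117591 (0.32), NONMMUT140459.1 (0.25) and NONMMUT143629.1 (0.62). FPKM totals did so for NONMMUT105576.1 (0.10), ENSMUST00000120440 (0.46), ENSMUST00000135244 (0.36), NONMMUT055060.2 (0.38), NONMMUT145952.1 (0.29), NONMMUT051907.2 (0.26), NONMMUT145116.1 (0.062), NONMMUT049891.2 (0.13) and NONMMUT143629.1 (0.28). Limma did so for NONMMUT105576.1 (0.087), ENSMUST00000120440 (0.45), ENSMUST00000135244 (0.37), NONMMUT055060.2 (0.38), NONMMUT145952.1 (0.27), NONMMUT051907.2 (0.28), NONMMUT145116.1 (0.067) and NONMMUT143629.1 (0.33). ENSMUST00000208576 turned negative with limma (-0.33), the replicate block (-0.32) and DESeq2 (-0.021). With a library left out the range crossed 0 for ENSMUST00000118803 (-0.37 to 1.36), ENSMUST00000120440 (-0.17 to 0.16), ENSMUST00000135244 (-0.40 to 0.17), ENSMUST00000198797 (-0.052 to 0.18), ENSMUST00000208576 (-1.07 to 0.54), NONMMUT051907.2 (-0.51 to 0.068), NONMMUT055060.2 (-0.25 to 0.15), NONMMUT099453.1 (-0.054 to 0.28), NONMMUT110417.1 (-0.033 to 0.78), NONMMUT142149.1 (-0.016 to 0.35), NONMMUT143629.1 (-0.31 to 0.079) and NONMMUT145952.1 (-0.29 to 0.011). The cause was not tested. Depth limits the lncRNAs below the count minimum, which were not tested.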

Other observations

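For 3 lncRNAs that were not tested, 1 or 2 libraries held most of the reads. ENSMUST00000180527 beside Rad52, a bidirectional lncRNA, had 521 reads in LPS_ES_PMMA replicate 3 and 369 in LPS_PMMA replicate 2 and none in the other 4. NONMMUT091466.1 beside Cdhr2 had 254 reads in LPS_PMMA replicate 1 and 1 to 8 in the others. NONMMUT006637.2 beside Gm47362, an antibidirectional lncRNA, had 117 reads in LPS_PMMA replicate 1 and none elsewhere.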
